A study of Mus musculus with 6 samples.

Results

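The cyclins and CDKs of the G1 phase, together with Rb1 and E2f1, form the switch that commits a cell to DNA replication. The 10 genes described here are Ccnd1, Ccnd2, Ccnd3, Cdk4, Cdk6, Ccne1, Ccne2, Cdk2, Rb1 and E2f1. They were taken by gene symbol from the 20637 genes listed for each library, and all 10 were present and passed the low-value filter.

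In this pathway, growth signals and steroid hormones raise the D-type cyclins, which bind and activate the cyclin-dependent kinases Cdk4 and Cdk6. These kinases phosphorylate the retinoblastoma protein, the product of Rb1, which then releases E2F transcription factors such as E2f1. E2F factors in turn transcribe the E-type cyclins, the partners of Cdk2, and the enzymes of DNA synthesis, and E2f1 is itself an E2F target. CDK inhibitors such as p21, the product of Cdkn1a, restrain the kinases. In the uterus, the D-type cyclins and their kinases are known as the point where oestrogen and progesterone act on epithelial division.

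Poly(A) RNA from the whole uterus of female mice killed on postnatal day 21 was sequenced in 3 libraries labelled Nat10 f/f (floxed controls) and 3 labelled Nat10 d/d (Nat10-deleted). Nat10 encodes an RNA cytidine acetyltransferase, and the study compared uteri with and without it. The controls carry the floxed allele. The labels state neither the Cre driver, the cells that lose the gene, the strain nor whether animals were pooled, and they give no other treatment. They also do not say that the libraries came from separate animals, so p-values measure the spread between these libraries, which may be technical. The values were taken as FPKM, fragments scaled to transcript length and library size. They allow genes to be compared within a library. Comparison between libraries also depends on the scaling between them, which is not given.

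Across the 6 libraries the values summed to between 500764 and 549263, and the low values put sequencing depth between 0.805 and 1.016 times that of control replicate 1. Nat10 itself, the targeted gene, had control values of 13.2, 16.4 and 9.95 FPKM. The deleted libraries were at 5.57, 5.23 and 5.53, or 41.4% of the control mean, and each lay below every control (limma adjusted p = 0.669). The 6 uterine genes used to check the tissue (Esr1, Pgr, Hoxa10, Hoxa11, Emx2 and Hand2) were detected, with sums between 426.3 and 513.4 for controls, and between 377 and 456.5 for the deleted group. Genes listed as markers of neighbouring tissue and of blood were partly present, and their sums do not show which cells expressed them. Of 7 ovarian genes, Cyp19a1, Fshr and Zp3 were listed at 0 in all 6 libraries, and the other 4 summed to between 23.67 and 36.03 FPKM. Oviduct and ciliated-cell markers summed to between 12.79 and 25.93, mesothelial markers to between 55.8 and 71.37 and skeletal muscle markers to between 41.89 and 60.11. Fat markers reached 51.02 in control replicate 1 and at most 9.88 elsewhere, and blood markers ranged from 709.4 to 5581. Nat10-deleted replicate 2 stood apart from the other deleted libraries for genes of the cell cycle, and results that rest on it are given with and without it. This library was singled out by those values, so cell-cycle results without it are descriptions only.

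None of the 10 genes passed the test for a difference between the groups. In limma, run across the 12640 tested genes with Benjamini-Hochberg adjustment, the adjusted p-values of the 10 ranged from 0.947 to 0.999, and 0% of all tested genes passed 0.05. At an unadjusted p under 0.05 there were 0 of the 10, beside 4.98% of tested genes, and for 0 of the 10 did the groups fail to overlap, beside 10.7% of tested genes. The log2 changes, deleted minus control on the log2(FPKM + 1) scale, lay between -0.06 and 0.20 with a median of 0.02, against a median of 0.03 over all tested genes. For Ccne1, Ccne2 and E2f1 the deleted group was widely spread: these 3 genes were far above every control in replicate 2 and below every control in replicates 1 and 3.

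The 10 genes spanned a wide range of levels. In FPKM, the mean over the 6 libraries fell from Cdk4 (131) through Ccnd3 (96.9), Ccnd2 (67.6), Ccnd1 (37.4), Cdk2 (18.95), Cdk6 (13.4), Rb1 (7.28) and E2f1 (5.10) to Ccne1 (2.72) and Ccne2 (2.63). Each gene exceeded the next in all 6 libraries, apart from Rb1 and E2f1, in this order in 5 of 6, and Ccne1 and Ccne2, in this order in 2 of 6. Cdk4 stood at percentile 96.3 of the mean values of tested genes and Ccne2 at percentile 10.1.

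**Figure D1:**
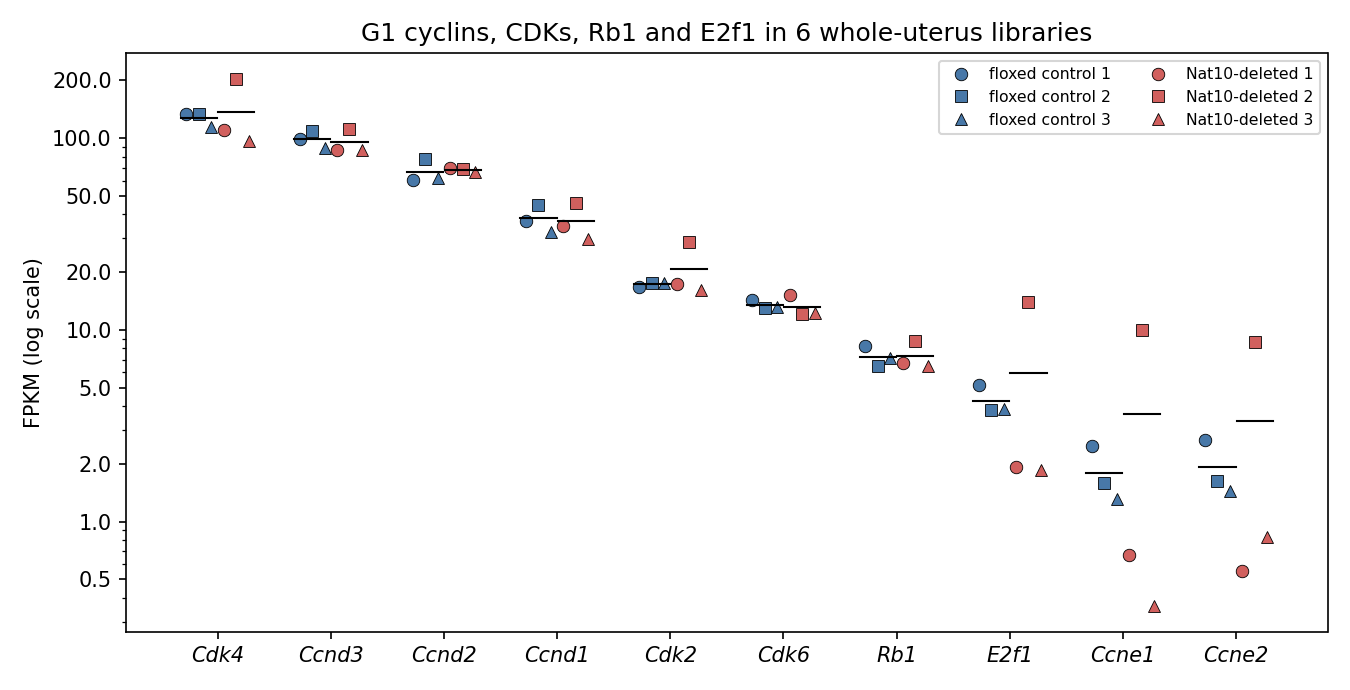
FPKM of the 10 genes (log axis) in each of the 6 libraries, ordered by mean; blue symbols are floxed controls, red symbols are Nat10-deleted libraries, the symbol shape gives the replicate number and black lines are group means. Ccne1, Ccne2 and E2f1 show the widest spread, with Nat10-deleted replicate 2 at the top and replicates 1 and 3 at the bottom of each.

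The D-type cyclins overlapped between the groups. Ccnd1 (ENSMUSG00000070348, chr7:144929931-144939925, minus strand, GRCm38), the cyclin classically induced by growth factors, was listed at 36.9, 44.9 and 32.5 FPKM in controls and at 34.7, 45.9 and 29.9 in deleted libraries. The deleted values straddled the controls, with replicate 2 just above the highest control and replicate 3 below the lowest. The log2 change came to -0.06, with a standard error of 0.19, a 95% interval from -0.49 to 0.38 and a limma adjusted p of 0.989.

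Ccnd2 (ENSMUSG00000000184, chr6:127125162-127152193, minus strand) encodes the D-type cyclin that ovarian granulosa cells need for their division. It stood at 60.1, 78.1 and 62.0 FPKM in controls and at 69.8, 68.6 and 66.6 in deleted libraries. All 3 deleted values fell inside the control range, and Ccnd2 did not share the excess of replicate 2. The log2 change was 0.04 (95% interval -0.25 to 0.34, limma adjusted p = 0.989).

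Ccnd3 (ENSMUSG00000034165, chr17:47505051-47599691, plus strand), the most abundant D-type cyclin of these uteri, had 99.2, 108.8 and 88.7 FPKM in controls, against 86.7, 112.0 and 86.2 in deleted libraries. Replicate 2 lay above every control and replicates 1 and 3 below every control, but by small margins: the highest and lowest deleted values differed 1.299-fold, and the controls 1.23-fold. The log2 change was -0.06 (95% interval -0.40 to 0.27, limma adjusted p = 0.985).

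Within each library, the mix of the 3 D-type cyclins varied by a few percentage points. Ccnd3 supplied 48.6% ± 1.82 (SD, n = 3) of their summed FPKM in controls and 47.3% ± 2.07 (SD, n = 3) in deleted libraries, and Ccnd2 supplied 32.7% ± 1.82 and 34.4% ± 3.58. The share of Ccnd1 was 18.6% ± 0.834 in controls and 18.3% ± 1.96 in deleted libraries (SD, n = 3), a difference of -0.375 percentage points. Exact two-sided permutation tests gave p = 0.9, 0.6 and 0.5 for Ccnd1, Ccnd2 and Ccnd3, where 3 libraries against 3 cannot go below 0.1. The 3 genes summed to 204 ± 25.2 FPKM in controls and 200.1 ± 23.2 in deleted libraries (SD, n = 3).

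Cdk4 (ENSMUSG00000006728, chr10:127063534-127067920, plus strand), the main catalytic partner of the D-type cyclins, was listed at 133.2, 133.4 and 113.6 FPKM in controls and at 110.2, 202.3 and 96.1 in deleted libraries. Replicate 2 exceeded the highest control 1.52-fold, while replicates 1 and 3 were below the lowest. The log2 change was 0.03 (95% interval -0.58 to 0.64, limma adjusted p = 0.994).

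Cdk6 (ENSMUSG00000040274, chr5:3341485-3531008, plus strand), the second kinase of the D-type cyclins and the more prominent of the pair in blood cells, was listed at 14.3, 13.0 and 13.2 FPKM in controls and at 15.1, 12.2 and 12.3 in deleted libraries. Replicate 1 was the highest of the 6 libraries and replicate 2 the lowest, whereas Cdk4 was highest in replicate 2. The log2 change was -0.04 (95% interval -0.32 to 0.24, limma adjusted p = 0.989).

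Of the summed FPKM of Cdk4 and Cdk6, Cdk6 made up 9.73%, 8.90% and 10.4% for controls 1, 2 and 3. The share in deleted replicates 1, 2 and 3 was 12.1%, 5.67% and 11.3%. It was thus above every control in replicates 1 and 3 and below every control in replicate 2, and the group means, 9.68% ± 0.767 and 9.69% ± 3.50 (SD, n = 3), differed by 0.0119 percentage points (exact two-sided permutation p = 1). Markers of leukocytes, in which Cdk6 is abundant, stood in the same order within the deleted group: the 8 genes of that list, all detected, summed to 364.9, 203.8 and 362 FPKM in replicates 1, 2 and 3. The order did not hold in full among controls 1, 2 and 3, where these markers summed to 210.8, 278.1 and 337.2 FPKM. Control 3 had the highest marker sum and the highest Cdk6 share, but the lowest sum was in control 1 and the lowest share in control 2. In FPKM rather than share, Cdk6 was highest in control 1. The part of leukocytes in the Cdk6 values was not tested.

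**Figure D2:**
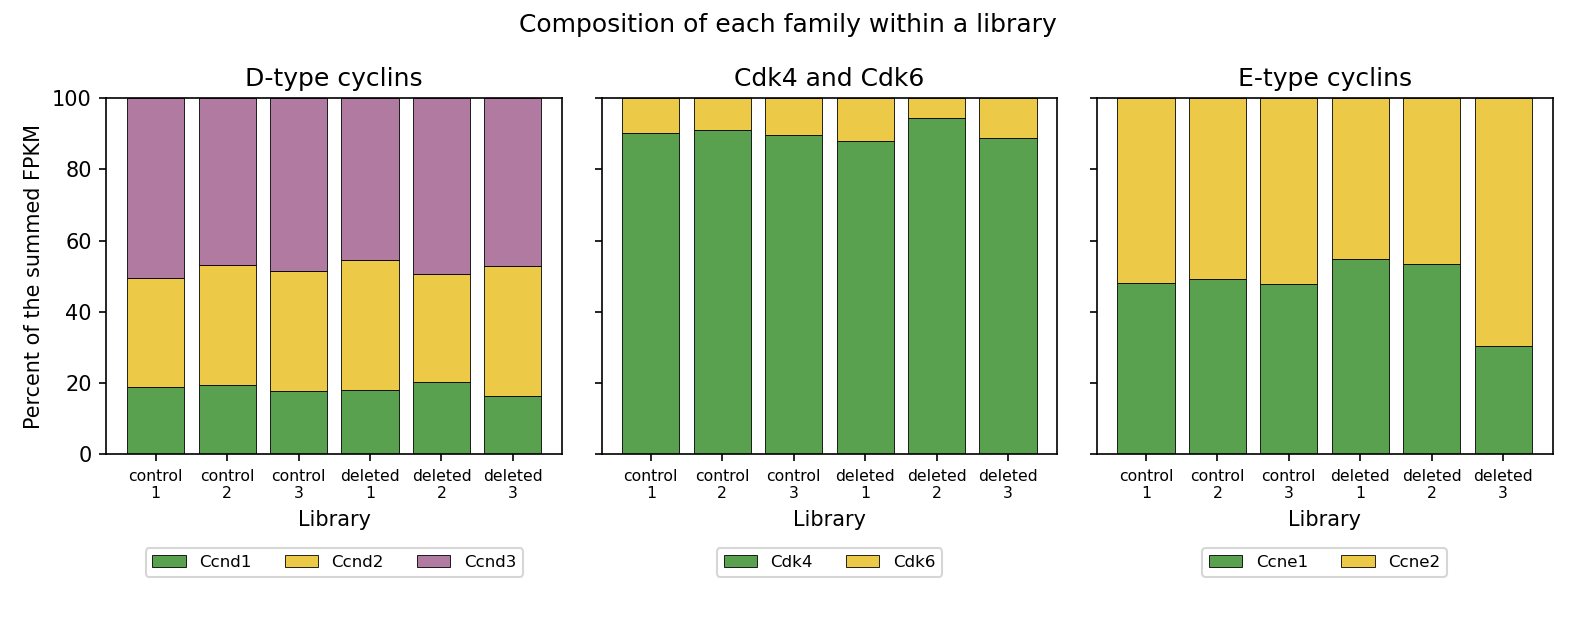
Share of the summed FPKM of the D-type cyclins, of Cdk4 and Cdk6, and of the E-type cyclins in each library, as stacked bars from 0 to 100%. Ccnd3 is the largest D-type share in all 6 libraries, Cdk6 falls to 5.67% in Nat10-deleted replicate 2, and Ccne2 reaches 69.6% in Nat10-deleted replicate 3. Ccne1 and Ccne2 are both under 1 FPKM in replicates 1 and 3 of the deleted group.

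The E-type cyclins carried the widest spread of the 10 genes. Ccne1 (ENSMUSG00000002068, chr7:38097984-38107534, minus strand), which activates Cdk2 at the start of S phase, had 2.47, 1.58 and 1.31 FPKM in controls, against 0.673, 9.94 and 0.365 in deleted libraries. Replicate 2 was 4.02-fold above the highest control, and replicates 1 and 3 stood at 37.6% and 20.4% of the control mean. The deleted values therefore differed 27.2-fold among themselves, a ratio that rests on a lowest value of 0.365 FPKM, against 1.88-fold among controls. In whole-organ RNA such a difference can come from fewer expressing cells or from less RNA per cell, and these cannot be told apart.

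Ccne2 (ENSMUSG00000028212, chr4:11191351-11204779, plus strand), the second E-type cyclin, followed the same course with 2.67, 1.64 and 1.44 FPKM in controls, against 0.555, 8.62 and 0.836 in deleted libraries. Replicate 2 was 3.23-fold above the highest control, and replicates 1 and 3 were at 29.0% and 43.6% of the control mean. The differences of mean log2(FPKM + 1) were 0.09 for Ccne1 (SE 0.72, 95% interval -1.60 to 1.78) and 0.07 for Ccne2 (SE 0.64, 95% interval -1.43 to 1.57), with limma adjusted p = 0.994 for both. The plain means, which replicate 2 dominates, were 1.79 ± 0.606 and 3.66 ± 5.44 FPKM for Ccne1 and 1.92 ± 0.662 and 3.34 ± 4.58 for Ccne2 (controls, then deleted; SD, n = 3). These intervals hold changes of more than a log2 unit in either direction, so the 6 libraries could not show whether the E-type cyclins differ.

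Ccne2 was slightly above Ccne1 in each control, where it made up 50.8% to 52.3% of their sum. The share of Ccne2 was 45.2%, 46.5% and 69.6% in deleted replicates 1, 2 and 3, and the exact two-sided permutation test gave p = 1. Replicates 1 and 2 were below every control, although their summed values of 1.23 and 18.6 FPKM lay on opposite sides of the control range of 2.75 to 5.14. The 69.6% of replicate 3 rests on a sum of 1.20 FPKM. In deleted replicates 1 and 3 both genes were under 1 FPKM, the level of the filter, and read counts are unknown, so these shares are uncertain. Per 100 FPKM of D-type cyclins there were 2.62, 1.39 and 1.504 FPKM of E-type cyclins in controls and 0.642, 8.19 and 0.658 in deleted libraries.

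Cdk2 (ENSMUSG00000025358, chr10:128697939-128705031, minus strand), the kinase that the E-type cyclins activate, was the least variable of the 10 genes among controls, with 16.7, 17.5 and 17.6 FPKM. In the deleted group it was 17.3 and 16.1 in replicates 1 and 3 and 28.6 in replicate 2. Replicate 2 was 1.62-fold above the highest control, replicate 1 was inside the control range and replicate 3 just below it. Its log2 change with all 6 libraries, the largest in size of the 10, was 0.20 (SE 0.21, 95% interval -0.28 to 0.68, limma adjusted p = 0.947). This rank and sign rest on replicate 2, since without that library the log2 change of Cdk2 was -0.05 (limma adjusted p = 0.866).

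Upstream sequence was available from RefSeq (GRCm38.p6) for 6 of the 10 genes. No window was matched for Ccnd1, Ccnd2, Ccne2 and Rb1. The 250 upstream bases of E2f1 lay wholly in GENCODE exons, so none of them was searched. The part outside GENCODE exons is shown for Cdk4, Cdk2 and Ccne1, a kinase of the D-type cyclins and the E-type cyclin with its kinase, each highest in Nat10-deleted replicate 2. Capitals mark 3 motifs, searched on both strands without overlap between different motifs: the E2F core (any of the spellings TTCCCGC and also TTCGCGC and also TTGCCGC and also TTGGCGC), the E-box bound by Myc and related factors (CACGTG) and the GC box bound by Sp1 (GGGCGG). A match on the other strand appears as its reverse complement.
Cdk4 (chr10:127063285-127063533, plus strand): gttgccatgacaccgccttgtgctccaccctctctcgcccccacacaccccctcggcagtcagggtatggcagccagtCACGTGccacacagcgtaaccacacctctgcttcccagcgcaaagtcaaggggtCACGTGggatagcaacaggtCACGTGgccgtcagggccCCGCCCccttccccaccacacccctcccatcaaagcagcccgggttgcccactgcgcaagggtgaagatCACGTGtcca
Cdk2 (chr10:128705052-128705179, minus strand): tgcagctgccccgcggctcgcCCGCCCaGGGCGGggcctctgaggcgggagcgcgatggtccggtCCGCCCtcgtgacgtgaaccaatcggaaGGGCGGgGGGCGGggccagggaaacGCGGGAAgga
Ccne1 (chr7:38107535-38107740, minus strand): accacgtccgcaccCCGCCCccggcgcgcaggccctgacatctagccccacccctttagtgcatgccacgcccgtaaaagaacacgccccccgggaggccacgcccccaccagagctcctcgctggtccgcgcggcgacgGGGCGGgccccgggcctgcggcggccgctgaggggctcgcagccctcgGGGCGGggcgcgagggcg
Cdk4 has 4 E-boxes and 1 GC box, Cdk2 has 5 GC boxes and 1 E2F core whose last base is at -4 from the start site, and Ccne1 has 3 GC boxes. Of the 250 upstream bases, 105 of Cdk2 and 44 of Ccne1 lie in exons and were not searched. Those of Ccne1 are nearest its start site, so the absence of a motif holds for the stretch shown only. Among 32851 RefSeq windows of 250 bases, which are longer than the stretches shown, 7.89% hold an E2F core, 6.02% an E-box and 32.7% a GC box. A match is a description of the sequence and not a measured binding site.

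Rb1 (ENSMUSG00000022105, chr14:73183673-73325822, minus strand), the brake on E2F factors, had 8.19, 6.45 and 7.13 FPKM in controls, against 6.70, 8.79 and 6.44 in deleted libraries. Replicate 2 was again the highest of the 6, though only 1.07-fold above the highest control. The log2 change was 0.00 (95% interval -0.35 to 0.35, limma adjusted p = 0.999).

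E2f1 (ENSMUSG00000027490, chr2:154559407-154569892, minus strand), the activator E2F factor of the 10, had 5.16, 3.80 and 3.85 FPKM in controls, against 1.92, 14.01 and 1.87 in deleted libraries. Replicate 2 was 2.72-fold above the highest control, and replicates 1 and 3 were at 45.0% and 43.7% of the control mean. The log2 change was -0.06 (SE 0.60, 95% interval -1.45 to 1.33, limma adjusted p = 0.994).

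Set against Rb1 in the same library, E2f1 stood at 62.9, 58.9 and 54.0 per 100 FPKM of Rb1 in controls. The corresponding values in deleted replicates 1, 2 and 3 were 28.7, 159.4 and 29.0. The ratio lay outside the control range, and in opposite directions, in the deleted libraries (exact two-sided permutation p = 1 for the group means).

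Nat10-deleted replicate 2 was the highest of the 6 libraries for 8 of the 10 genes, all but Ccnd2 and Cdk6, beside 30.1% of tested genes. For 5 of the 10 (Ccnd3, Ccne1, Ccne2, Cdk4 and E2f1), replicate 2 lay above every control and both other deleted libraries lay below every control, an arrangement that 6.77% of tested genes showed. This arrangement was picked after the values were seen and describes these libraries only. In log2 units relative to the control mean, E2f1 was at -0.84, 1.52 and -0.87 in deleted replicates 1, 2 and 3, and Ccne1 was at -0.72, 1.99 and -1.01.

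**Figure D3:**
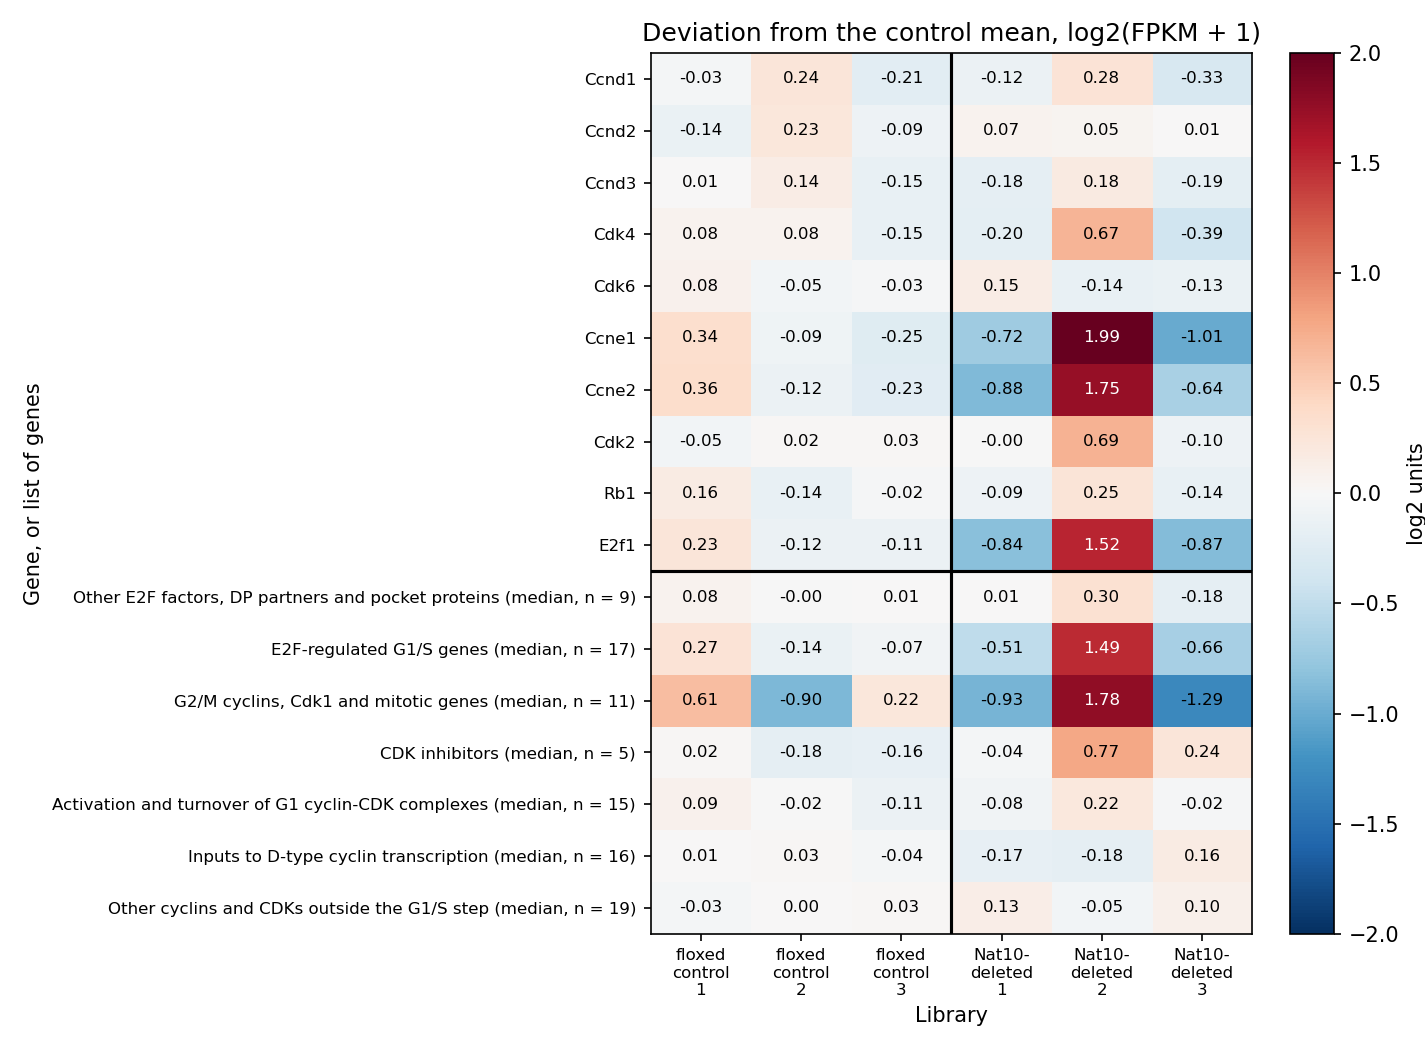
Deviation of each library from the control mean in log2(FPKM + 1) units, for the 10 genes (upper rows) and as the median over tested members of each pathway list (lower rows). Ccne1, Ccne2, E2f1, the E2F-regulated genes and the mitotic genes are all positive in Nat10-deleted replicate 2 and negative in replicates 1 and 3.

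Leaving out Nat10-deleted replicate 2 brought none of the 10 genes past the threshold. In that limma fit of 5 libraries, the log2 change was -0.85 for E2f1 (limma unadjusted p = 0.000938, limma adjusted p = 0.140), -0.86 for Ccne1 (adjusted p = 0.211), -0.76 for Ccne2 (adjusted p = 0.245) and -0.29 for Cdk4 (adjusted p = 0.343). These 4 were below the controls at an unadjusted p under 0.05, beside 6.57% of tested genes. Of all tested genes 0.0949% passed an adjusted p of 0.05 in that fit, and 0 of the 10 were among them. The other 6 genes had log2 changes between -0.22 (Ccnd1) and 0.04 (Ccnd2). Replicate 2 was singled out by its high values for these same genes. The lower values and small p-values without it follow in part from that choice and are no separate evidence. Leaving out Nat10-deleted replicate 3 instead gave 0.34 for E2f1, 0.64 for Ccne1, 0.43 for Ccne2 and 0.24 for Cdk4.

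**Figure D4:**
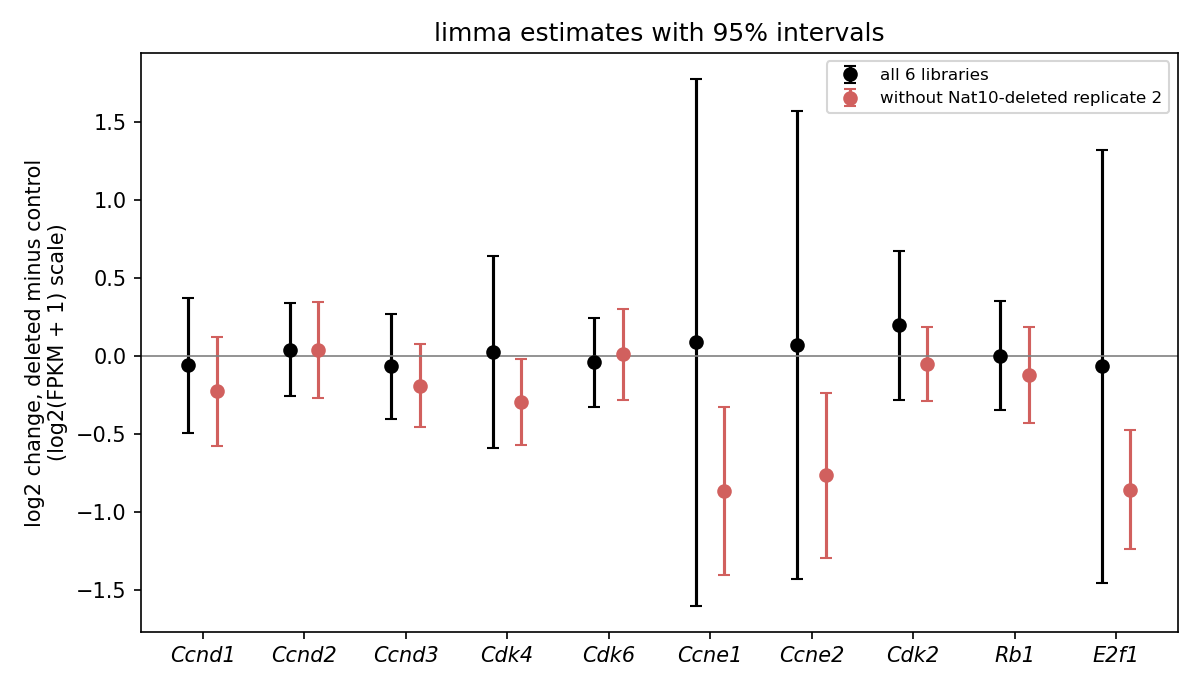
log2 change of each gene (deleted minus control, log2(FPKM + 1) scale) with its 95% interval from limma, with all 6 libraries (black) and without Nat10-deleted replicate 2 (red). The intervals of Ccne1, Ccne2 and E2f1 are the widest with all libraries, and these genes and Cdk4 have intervals below 0 without replicate 2.

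The other genes of the pathway were counted in lists of fixed membership, none of which had a gene past an adjusted p of 0.05 in limma with all 6 libraries. Among the other E2F factors, their DP partners and the pocket proteins related to Rb1, 9 of 11 listed genes were tested. The median log2 change was 0.08, and 0 had an unadjusted p under 0.05. Without Nat10-deleted replicate 2 the median was -0.18. In that limma fit 1 of the 9 was lower at an unadjusted p under 0.05, beside 6.57% of tested genes. E2f2 and E2f7 were under the low-value filter. E2f5, a repressive E2F factor, had 14.4, 18.2 and 16.4 FPKM in controls, against 22.5, 17.1 and 18.5 in deleted libraries, and Tfdp2, a DP partner, overlapped between groups (log2 change 0.08, limma adjusted p = 0.970). E2f8, named here after its values were seen, was the member of this list with the arrangement of E2f1, at 2.51, 0.854 and 1.37 in controls, against 0.697, 6.41 and 0.135 in deleted libraries.

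The G1/S genes that E2F factors are known to drive had the same order of deleted libraries against controls as E2f1 in most cases. Of 18 listed genes 17 were tested (Orc1 was under the filter), with a median log2 change of 0.05 and 0 at an unadjusted p under 0.05. All 17 were highest in Nat10-deleted replicate 2, beside 30.1% of tested genes, and 15 were also below every control in replicates 1 and 3, beside 6.77%; the exceptions, named for that reason, were Mcm7 and Pcna. The list median was -0.51, 1.49 and -0.66 log2 units from the control mean for replicates 1, 2 and 3 of the deleted group, and its control values ran from -0.14 to 0.27. Mcm7, a subunit of the replicative helicase, had 31.4, 26.1 and 27.2 FPKM in controls, against 25.0, 59.5 and 28.4 in deleted libraries. Without replicate 2 the list median was -0.68. In that limma fit 14 of 17 genes were lower at an unadjusted p under 0.05, beside 6.57% of tested genes, and 0 were called. As for E2f1, this count follows in part from the choice of the library left out.

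Genes of G2 and mitosis varied in the controls as well. Of 12 listed genes 11 were tested (Bub1 was under the filter), with a median log2 change of -0.12 and 0 at an unadjusted p under 0.05, and all 11 were highest in Nat10-deleted replicate 2, beside 30.1% of tested genes. Without replicate 2 the median was -1.06. In that limma fit 7 of 11 genes were lower at an unadjusted p under 0.05, beside 6.57% of tested genes, and 0 were called. This count too follows in part from the choice of the library left out. With all 6 libraries, the list median stood 0.61, -0.90 and 0.22 log2 units from the control mean for controls 1, 2 and 3. It stood at -0.93, 1.78 and -1.29 for the deleted replicates, so that control replicate 2 was close to deleted replicate 1. Ccnb2, a mitotic cyclin, had 9.14, 2.67 and 8.07 FPKM in controls, against 0.618, 22.5 and 1.14 in deleted libraries. Ccnb1, the main cyclin of Cdk1, had 6.36, 0.890 and 4.13 in controls, against 0.587, 13.7 and 0.466 in deleted libraries. For E2f1, control replicate 2 (3.80) was beside control replicate 3 (3.85).

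Mki67, the classical marker of dividing cells, had 10.7, 2.47 and 7.57 FPKM in controls, against 2.30, 24.0 and 1.28 in deleted libraries. Like E2f1, it was highest in deleted replicate 2 and below every control in deleted replicates 1 and 3.

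Of 7 CDK inhibitor genes 5 were tested (Cdkn2a and Cdkn2b were under the filter), with a median log2 change of 0.03. Cdkn1a, whose product p21 inhibits Cdk2 complexes, was the 1 member of this list with an unadjusted p under 0.05, beside 4.98% of tested genes, with 3.68, 7.23 and 6.27 FPKM in controls, against 33.9, 116 and 43.4 in deleted libraries. Its log2 change was 3.11 (limma adjusted p = 0.669), and without replicate 2 it was 2.59 (limma adjusted p = 0.0271). Every deleted library exceeded every control, and the library with the most Cdkn1a was also the library with the most E2f1, Ccne1, Ccne2 and Cdk2. Cdkn2d, which inhibits Cdk4 and Cdk6, had 16.3, 9.82 and 10.6 in controls, against 7.15, 21.1 and 9.58 in deleted libraries.

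**Figure D5:**
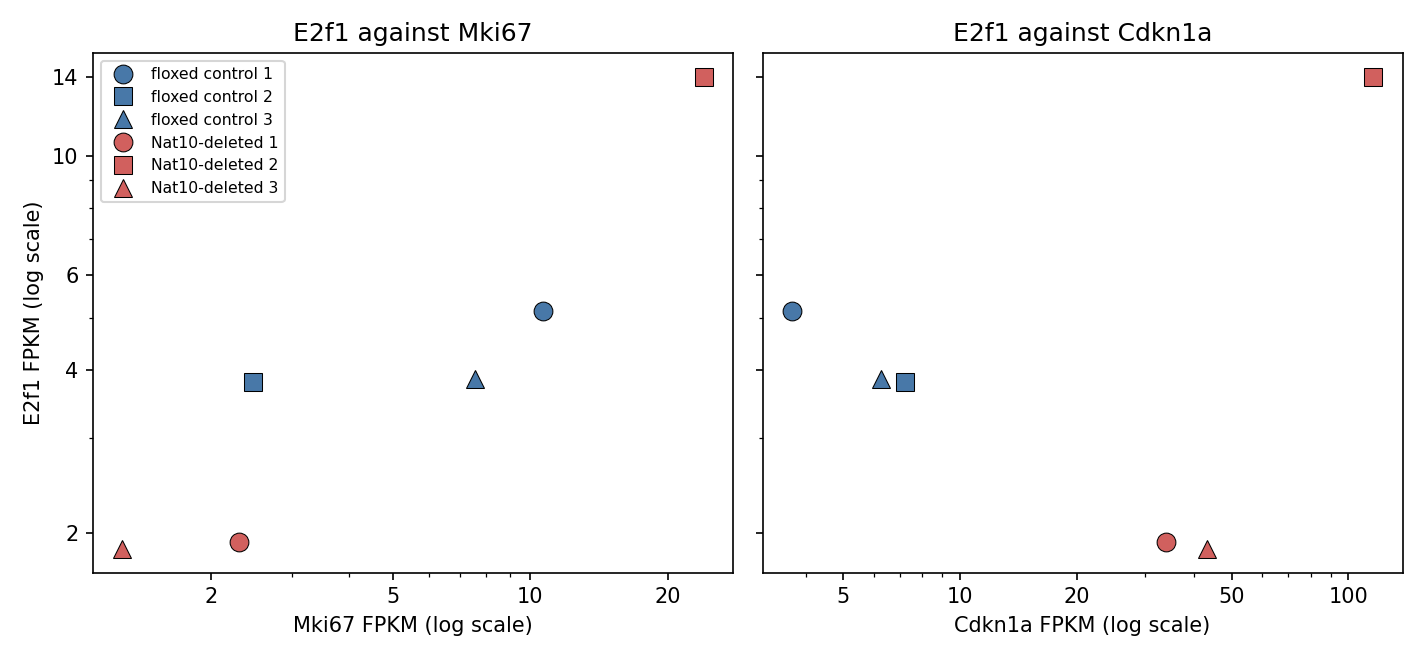
E2f1 against Mki67 (left) and against Cdkn1a (right) in FPKM on log axes, with 1 point for each library; blue symbols are floxed controls and red symbols are Nat10-deleted libraries. Nat10-deleted replicate 2, at 14.01 FPKM of E2f1, is highest on every axis, while replicates 1 and 3 combine Cdkn1a above the controls with E2f1 below them.

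Genes that activate or degrade the G1 complexes were tested for 15 of 18 listed names, with a median log2 change of 0.06 and 0 at an unadjusted p under 0.05. Mnat1 and Ccnh, subunits with Cdk7 of the CDK-activating kinase, had the smallest p-values of this list, with log2 changes of 0.25 and 0.23 (limma adjusted p = 0.922 and 0.924). Mnat1 was at 22.9, 19.96 and 22.1 FPKM in controls and at 30.1, 22.1 and 26.2 in deleted libraries, so the groups overlapped.

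The inputs to D-type cyclin transcription comprised 16 genes, all tested, with a median log2 change of -0.06, 1 higher and 1 lower at an unadjusted p under 0.05, beside 4.98% of tested genes in either direction. Pgr, the progesterone receptor, was the lower gene, at 73.8, 62.2 and 60.3 FPKM in controls, against 35.3, 25.4 and 32.7 in deleted libraries. Fos, a component of the AP-1 factor that acts on Ccnd1, was the higher gene, at 1.80, 3.43 and 3.50 in controls, against 5.62, 6.01 and 5.86 in deleted libraries. The limma adjusted p was 0.669 for Pgr and 0.922 for Fos, and the groups did not overlap for either. They also did not overlap for Stat5a, a signal transducer named here for that reason, at 6.58, 5.54 and 5.72 in controls, against 4.73, 5.05 and 5.33 in deleted libraries, which makes 3 of 16 beside 10.7% of tested genes. Cyclins and CDKs that act outside the G1/S step, many of them in transcription, were tested for 19 of 19 names, with a median of 0.07. Ccng1, a cyclin known as a p53 target, was the 1 gene of that list at an unadjusted p under 0.05, beside 4.98% of tested genes, at 34.0, 30.3 and 27.6 in controls, against 41.2, 94.8 and 40.4 in deleted libraries (limma adjusted p = 0.922). Its log2 change was 0.81, and 0.41 without replicate 2. Cdk16 had the second smallest p there (log2 change -0.18, limma adjusted p = 0.922).

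For each of the 10 genes, the tested genes most like it were sought by Pearson's r of log2(FPKM + 1) over the 6 libraries, among genes with a standard deviation of at least 0.3. The nearest to Ccne1 were Chaf1a (r = 0.999), Prim2 and Fam111a, and the nearest to Ccne2 were Spc24 (0.998), Tyms and Ercc6l. Those of E2f1 were Dhrs4 (0.999), Copz2 and Nsl1, those of Cdk4 were Rfc2 (0.996), Slc25a5 and Hikeshi, and those of Rb1 were Foxm1 (0.992), Cdkn2c and Rpusd3. Ccnd1 was nearest to Ecsit (0.991), Sqle and Fndc4, and Ccnd3 to Fndc4 (0.991), with Srebf2 also among its nearest. The nearest to Cdk2 were Sulf2 (0.992), Hmox1 and Ptgr1, to Ccnd2 Fgfbp1 (0.961), Gnl3 and Mphosph10, and to Cdk6 Lst1 (0.942), Gm12216 and Wfdc10. These values describe 6 points only, and Nat10-deleted replicate 2 was the highest of them for 8 of the 10 genes, all but Ccnd2 and Cdk6. Without it, r of Cdk2 with Ptgr1 was 0.622 and with Sulf2 0.816, while r of Ccne1 with Chaf1a was 0.996.

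Marker levels that moved with Nat10-deleted replicate 2 are given here as measurements, and their part in its cell-cycle values was not tested. Among the deleted libraries and controls alike, replicate 2 had the lowest summed FPKM of the 10 epithelial markers (877, beside 894 to 986 in controls and 1034 and 1185 in replicates 1 and 3). It was also lowest for the uterine list, for the 8 leukocyte markers and for the ovary list (23.7, beside 34.3 to 36.0 in controls). For the oviduct and ciliated-cell list it was lowest too, at 12.79, beside 17.2 to 19.17 in controls and 19.67 and 25.93 in replicates 1 and 3. Its stromal sum of 4143 lay inside the control range of 3669 to 4236, whereas replicates 1 and 3 were at 3069 and 2998. Its smooth muscle sum of 4586 lay inside the control range of 4127 to 4742. Endothelial sums ran from 230.1 to 256.9 for the deleted group, below the control sums of 268.8 to 299.5.

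Some values may include reads of overlapping genes, since the strand setting of the counting is not given in the sources used here. In GENCODE M21, exons of Cdk4 share 19.7% of their bases with Tspan31 on the other strand, those of Ccne2 share 17.4% with Ints8, and those of Ccnd1 share 23.4% with LTO1. Tspan31 had 54.0, 53.6 and 51.2 FPKM in controls, against 46.2, 65.9 and 42.6 in deleted libraries, the same order as Cdk4 within the deleted group. Ints8 ranged over 15.2 to 17.8 among controls and 15.5 to 20.6 among deleted libraries, a narrower spread than that of Ccne2.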

How the data were processed

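Whole-uterus poly(A) RNA libraries (3 Nat10 f/f, 3 Nat10 d/d) were extracted with TRIzol and made with the TruSeq RNA kit, per the labels' protocols, and grouped and numbered by their titles. Per the submitters' processing notes, HISAT2 2.2.1, Cufflinks 2.2.1 and mm10 were used. Values deposited by the authors were taken as FPKM, from the named tool and the values, since the file headers name no unit; annotation, strand setting and scaling between libraries are not given in the sources used here. Read totals are unknown, so no counting intervals are given. Genes with at least 1 FPKM in at least 3 libraries (12640 of 20637) were analysed as log2(FPKM + 1) with limma 3.58.1 in R 4.3.3 (group as the only term, mean-variance trend, two-sided, Benjamini-Hochberg over all tested genes, threshold 0.05). Fold changes on this scale understate changes of low genes. Shares within a library were compared by exact permutation. Lists were described by counts and medians, without a test. Tested on simulated data for this comparison (12640 genes, 200 changed), 80.1% of genes changed by 1 log2 unit and 0% of those changed by 0.5 were called. The simulated noise was independent between genes and libraries, without an outlying library, so these shares do not give the power in the real data. In the real fit the log2 changes of Nat10 (-1.11), Pgr (-1.06) and Cdkn1a (3.11) all had a limma adjusted p of 0.669. Relative depth is the most frequent ratio of low values between libraries. Python 3.11.15, pandas 2.3.3 and numpy 2.4.6 joined the tables. Named by rule were Nat10, the 10 genes, Cdkn1a and Mki67, the 2 genes of smallest p in each list and the 3 genes most like each of the 10; some of these are not reported here. The 10 genes and the lists were chosen with earlier results of these data known. Alternatives were other scalings, filters, a pseudocount of 0.1, variance models, array weights, a replicate block and leaving out each library. Gene positions are from GENCODE M21 (GRCm38, the same assembly as mm10).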

Additional observations from a re-analysis of the deposited data

How the results depend on the processing

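The 10 genes had 0 calls under each alternative run, including an adjusted p of 0.1 as threshold, and their limma adjusted p-values never went below 0.124 (E2f1 with array quality weights). Count-based tests had no counts to work on and were left out. Over all genes, 0 were called with all 6 libraries (630 at an unadjusted p under 0.05), 316 with array quality weights, which gave Nat10-deleted replicate 2 the lowest weight (0.224), and 0 to 12 when a library was left out, the 12 without Nat10-deleted replicate 2. A fit with replicate number as block called 0 genes (726 at an unadjusted p under 0.05). Its changes of the 10 genes equal the main ones, because in this balanced design a block by replicate number cannot alter them. The numbers were not taken as pairs, because deviations of same-numbered libraries correlated at -0.341, -0.0287 and 0.1, and control replicate 1 correlated best with Nat10-deleted replicate 2 (0.267).

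Signs of these small changes depended on the processing. With a pseudocount of 0.1 the log2 change was -0.25 for Ccne1 and -0.16 for Ccne2, and neither gene was tested when a value of at least 1 was required in every library. With array quality weights it was -0.76 for E2f1 (sign kept), -0.67 for Ccne1, -0.79 for Ccne2, -0.18 for Cdk4, 0.09 for Cdk6 and -0.11 for Rb1. Quantile normalization gave -0.01 for Ccnd2, -0.03 for Cdk4 and -0.03 for Rb1, upper-quartile scaling gave -0.01 for Cdk4 and -0.03 for Rb1, and median centring gave -0.02 for Rb1. Leaving out each library in turn gave ranges of -0.22 to 0.08 for Ccnd1, -0.03 to 0.16 for Ccnd2, -0.19 to 0.01 for Ccnd3, -0.86 to 0.64 for Ccne1, -0.76 to 0.55 for Ccne2, -0.05 to 0.35 for Cdk2, -0.29 to 0.24 for Cdk4, -0.14 to 0.01 for Cdk6, -0.12 to 0.08 for Rb1 and -0.85 to 0.34 for E2f1. The cause of these changes of sign was not tested.

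The difference in the Ccnd1 share ranged from -1.379 to 0.578 percentage points with a library left out, that of Cdk6 from -1.179 to 2.023 (without Nat10-deleted replicate 2, exact permutation p = 0.1) and that of Ccne2 from -5.847 (without Nat10-deleted replicate 3, exact permutation p = 0.1) to 6.349; 0.1 is the smallest p these tests allow. Quantile normalization gave -0.095 for Ccne2. With a library left out, list medians ranged from -1.06 to 0.45 for G2 and mitosis, from -0.68 to 0.51 for E2F-regulated G1/S genes and from -0.18 to 0.26 for the other E2F and pocket proteins, the lowest of each without Nat10-deleted replicate 2. They ranged from -0.06 to 0.24 for CDK inhibitors, from -0.04 to 0.12 for activation and turnover and from -0.13 to 0.02 for inputs, which all changed sign, and from 0.01 to 0.13 for the other cyclins and CDKs. With array weights the G2 and mitosis median was -0.95 and the G1/S median -0.45, and that of the activation and turnover list was -0.09. The count of 5 genes with Nat10-deleted replicate 2 above and replicates 1 and 3 below every control was 4 with quantile normalization and 5 with the other scalings, and 5 to 8 with a library left out (8 without Nat10-deleted replicate 1); these alternatives were chosen after seeing the data.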
